A study of Rattus norvegicus with 30 samples.

Results

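Described here are 5 transcripts of the rat kidney that rose and fell together from animal to animal: ENSRNOT00000028247, ENSRNOT00000072819, ENSRNOT00000051422 and ENSRNOT00000090545 in 1 direction, and ENSRNOT00000051259 in the other. They are 5 of 40071 transcripts with an estimated count in each deposited table, which also hold 25095 genomic intervals, each named by its position. All 5 were found by identifier in all 30 libraries. They were chosen by their measured levels: by their joint variation within groups and by their difference between the low dose and the vehicle at 34 h. Those measurements are therefore a description and carry no test.

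Each library is 1 kidney of a Sprague-Dawley rat (the stock is outbred), in 6 groups of 5. Vehicle rats had saline at 1 ml/kg, low dose rats 0.25 mg/kg of mercury chloride (HgCl2) and high dose rats 0.50 mg/kg, each at 10 h or 34 h. The groups share stock and tissue, and the labels used here give neither sex nor age. Each kidney was powdered whole, so a lower level of a transcript can mean fewer cells that hold it or less of it per cell, and these cannot be told apart.

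Inorganic mercury is taken up by the proximal tubule and injures its cells, most of all in the straight part. Animals of an outbred stock also differ from each other in their alleles, with or without treatment. A sequence variant that acts on a nearby gene gives levels that follow the number of copies an animal carries, and so a small number of separate levels across animals. When a gene has several transcripts, or a close copy elsewhere, a read can match more than 1 target, and the quantifier divides that read among them.

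The tables do not pair transcript identifiers with genes. Of the 5 identifiers, 0 occur in the reference gene table used here, which covers 47357 genes of another assembly and holds 0 Ensembl transcript identifiers. Gene names, roles, chromosomal positions and sequences of the 5 are therefore not given, and marker genes of the kidney were not analysed here. Depth was 20.2 to 39.1 M counts on transcripts per library, and genomic intervals took a further 5.82 to 9.23% of all counts. Levels are in CPM, counts scaled to a common number of transcript counts, after TMM scaling unless said otherwise. The counts carry no molecular identifiers, so intervals from counts cover counting error only. High dose library 2 at 10 h, high dose libraries 3 and 4 at 34 h and vehicle library 2 at 10 h stood apart: their median r with the other libraries of their group, over all transcripts of at least 0.5 CPM, was 0.950 to 0.958, against 0.961 to 0.981 for the other 26. Values without these 4 are given where they matter. P-values set a difference between groups against the spread between these animals.

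The 5 transcripts are 931 to 3564 bases long and of low to moderate level. Per length, ENSRNOT00000051259 (931 bases) was the highest, at a mean of 17.5 TPM (a level that corrects for length; range over libraries 10.2 to 25.5). ENSRNOT00000051422 (1135 bases) followed at 8.49 TPM (2.74 to 17.5) and ENSRNOT00000090545 (2383 bases) at 3.35 TPM (1.15 to 6.89). ENSRNOT00000028247 (2123 bases) had a mean of 2.47 TPM and was listed at 0 in 5 libraries and at 7.48 TPM in the highest. ENSRNOT00000072819, the longest at 3564 bases, had 1.56 TPM (0.537 to 4.01). Between animals of the same group the 5 spread more than most transcripts, which their choice for varying within groups favours. The SD within groups, on log2(CPM + 0.5), was 1.41 for ENSRNOT00000028247 and 0.51 to 0.61 for the other 3 of its direction, against a median of 0.24 and a 95th percentile of 0.71 over 21112 transcripts. For ENSRNOT00000051259 it was 0.29, close to that median.

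The decimals of the estimated counts show which targets divided reads with each other. The counts of ENSRNOT00000028247 were not whole in 25 libraries, and adding those of ENSRNOT00000072819 gave a whole number, within 0.005, in all 25. The next best of all targets did so in 4. ENSRNOT00000051422 and ENSRNOT00000090545 were not whole in any of 30 libraries. Their sum was whole in 22, and adding ENSRNOT00000028265 made the other 8 whole. The sum of ENSRNOT00000051259 with a further transcript, ENSRNOT00000080613, was whole in all 30. The members thus fall into 3 closed sets: a first pair (ENSRNOT00000028247 and ENSRNOT00000072819), a second set of 3 (ENSRNOT00000051422, ENSRNOT00000090545 and the little expressed ENSRNOT00000028265, mean 0.116 CPM) and the third pair (ENSRNOT00000051259 and ENSRNOT00000080613, mean 1.38 CPM). No genomic interval was needed to make any of the 3 sums whole. The split of reads within a set is an estimate of the quantifier, while the sum of a set does not depend on that split.

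ENSRNOT00000028247 had the widest range. In the vehicle at 10 h its 5 libraries had 4.71, 5.08, 10.8, 3.80 and 7.06 CPM. In the vehicle at 34 h they had 0.278, 0.555, 0.128, 0 and 0.369 CPM. All 5 vehicle kidneys of 34 h thus lay below all 5 of 10 h. The choice of members used the vehicle of 34 h, so nothing is read from this difference. The low dose at 10 h divided, with 9.90, 9.85 and 10.8 CPM in libraries 1, 2 and 5 and 0.666 and 0 CPM in libraries 3 and 4. The high dose at 10 h divided too, with 4.49 and 7.39 CPM in libraries 3 and 5 and 0 CPM in the other 3. For a directly counted 0 the limit would be 3 counts, or 0.0917 to 0.116 CPM in the 5 libraries listed at 0. Here the 0 is an estimate, since the reads of the pair in these 5 libraries were all given to ENSRNOT00000072819. The level of ENSRNOT00000028247 there may exceed that limit. At 34 h the low dose libraries had 5.57, 5.18, 2.98, 7.60 and 12.1 CPM, and the high dose libraries 5.82, 0.143, 0.251, 1.42 and 4.86 CPM. High and near-0 kidneys therefore occurred side by side in 3 of the 6 groups, those of low dose at 10 h and of high dose at both times.

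ENSRNOT00000072819 followed its partner without reaching 0. The vehicle libraries had 5.56, 5.15, 8.64, 5.83 and 5.33 CPM at 10 h and 2.01, 1.59, 1.99, 2.37 and 1.49 CPM at 34 h. The low dose libraries at 10 h had 6.24, 10.9, 1.74, 2.98 and 6.40 CPM, and the high dose libraries 2.54, 1.90, 4.30, 2.20 and 4.54 CPM. The same low dose libraries, 3 and 4, were the lowest here as for ENSRNOT00000028247. At 34 h the low dose ranged from 4.32 to 7.89 CPM and the high dose from 2.23 to 6.34 CPM.

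ENSRNOT00000051422, of the second set, divided the 10 h low and high dose libraries in the same way, though not in the same order within a group. Its levels were 9.20, 6.24, 10.9, 10.2 and 5.998 CPM in the vehicle at 10 h and 2.50, 2.95, 3.40, 3.43 and 2.05 CPM at 34 h. The low dose at 10 h had 9.57, 9.77, 2.67, 2.78 and 13.0 CPM and the high dose 3.63, 2.88, 9.28, 3.45 and 9.50 CPM. As in the first pair, low dose libraries 3 and 4 and high dose libraries 1, 2 and 4 were the low ones. At 34 h the low dose libraries had 9.14, 7.44, 8.73, 6.35 and 12.1 CPM, and the high dose libraries 8.01, 3.31, 4.95, 7.68 and 10.5 CPM. ENSRNOT00000090545 ranged from 2.21 CPM (low dose library 4 at 10 h) to 12.6 CPM (vehicle library 3 at 10 h), with 2.46 to 3.70 CPM in the vehicle at 34 h and 6.55 to 12.3 CPM in the low dose at 34 h.

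ENSRNOT00000051259 ran the other way. It was lowest in low dose libraries 5 and 2 at 10 h (5.89 and 5.96 CPM), where the 4 others were high, and at 15.4 CPM in library 4 of the same group, where they were low. The vehicle libraries had 8.60, 9.47, 8.11, 9.63 and 11.98 CPM at 10 h and 13.2, 15.1, 14.0, 14.5 and 13.6 CPM at 34 h, with no overlap. The high dose at 10 h had 13.1, 12.3, 10.5, 16.9 and 12.5 CPM. At 34 h the low dose lay at 8.13, 8.79, 9.03, 10.3 and 7.37 CPM. The high dose had 9.03, 12.2, 11.8, 10.3 and 10.5 CPM. Its range over all libraries was narrower, 5.89 to 16.9 CPM, than the range of each of the other 4 relative to their lowest levels.

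**Figure D1:**
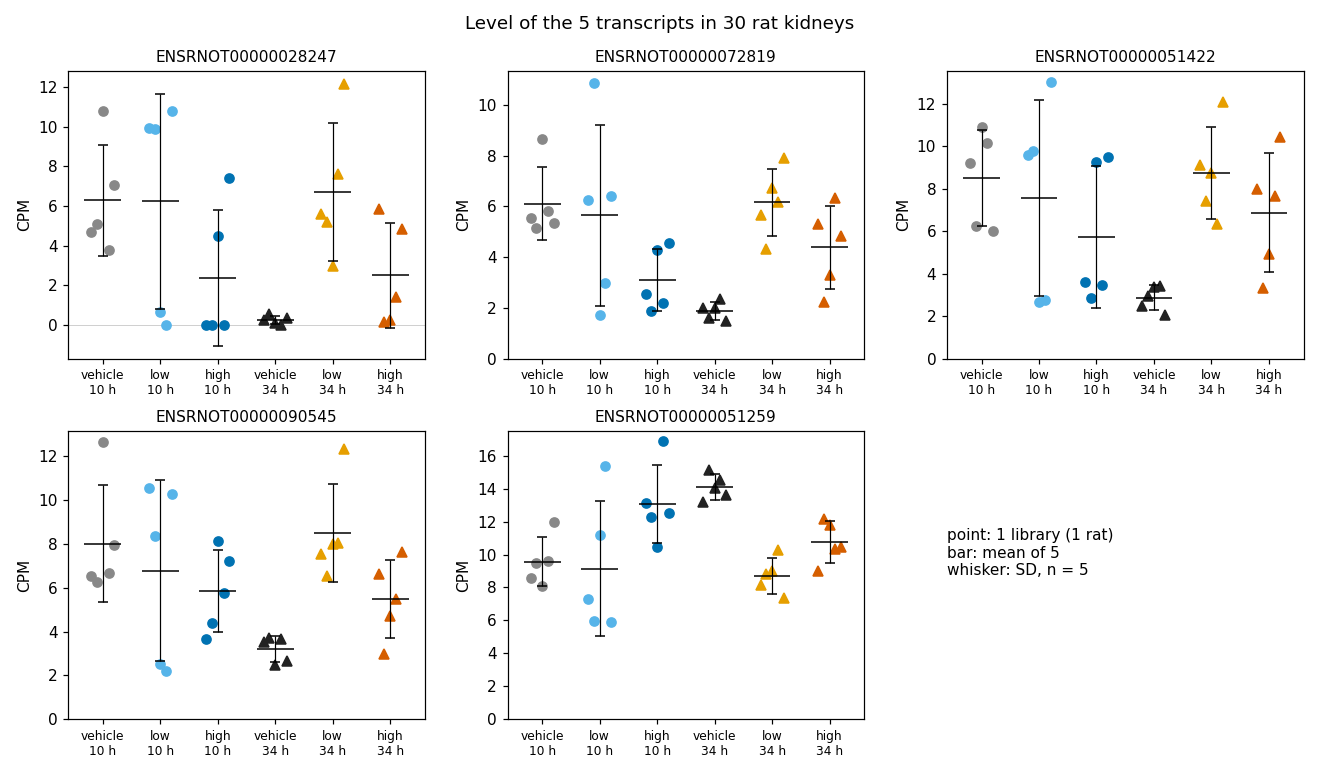
CPM (vertical axis, linear) of each of the 5 transcripts in the 6 groups of dose and time, with 1 point per library, a bar at the mean and a whisker for the SD (n = 5). The vehicle group of 34 h is uniformly low for the first 4 transcripts and high for ENSRNOT00000051259 (13.2 to 15.1 CPM), while the low dose at 10 h splits into 3 and 2 libraries.

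The joint variation was measured on deviations from group means of log2(CPM + 0.5), so that it does not rest on differences between groups. Over 30 libraries, Pearson's r was 0.77 to 0.86 for the 6 pairs among the 4 transcripts of 1 direction and -0.78 to -0.71 for their 4 pairs with ENSRNOT00000051259. Spearman's rho was 0.78 to 0.89 and -0.74 to -0.61. Within the 10 h libraries alone r was 0.84 to 0.92 and -0.82 to -0.76, and within the 34 h libraries 0.55 to 0.81 and -0.64 to -0.55. At 34 h the vehicle group hardly varied, so that these values rest mostly on the low and high dose. Without the 4 libraries that stood apart, r was 0.79 to 0.87 and -0.83 to -0.76. Since the transcripts were picked for these correlations, they get no p.

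Members of a set divide reads with each other, but the 3 sets do not. The sum of the first pair and the sum of the second set correlated at r = 0.93 (rho 0.90, 0.94 at 10 h, 0.90 at 34 h, and 0.92 without the 2 libraries farthest from the median). This was above every correlation between single members. With the third pair, r was -0.66 for the first pair and -0.74 for the second set. At 34 h these were -0.49 and -0.52. Within the third pair, the partner ENSRNOT00000080613 held 4.93 to 28.5% of the pair's counts, and the highest shares, 18.6 to 28.5%, were those of the 5 libraries with the highest levels of the first pair.

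The total of the 3 sets varied as well. The 3 sums together amounted, as mean ± SD (n = 5), to 23.7 ± 1.08 CPM for vehicle kidneys of 34 h and to 39.9 ± 7.59 CPM for those of 10 h. Over all libraries they ranged from 19.6 to 54.0 CPM. The r of the member index, defined next, with log2 transcript counts was 0.31, and with the percentage of counts on intervals 0.07.

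**Figure D2:**
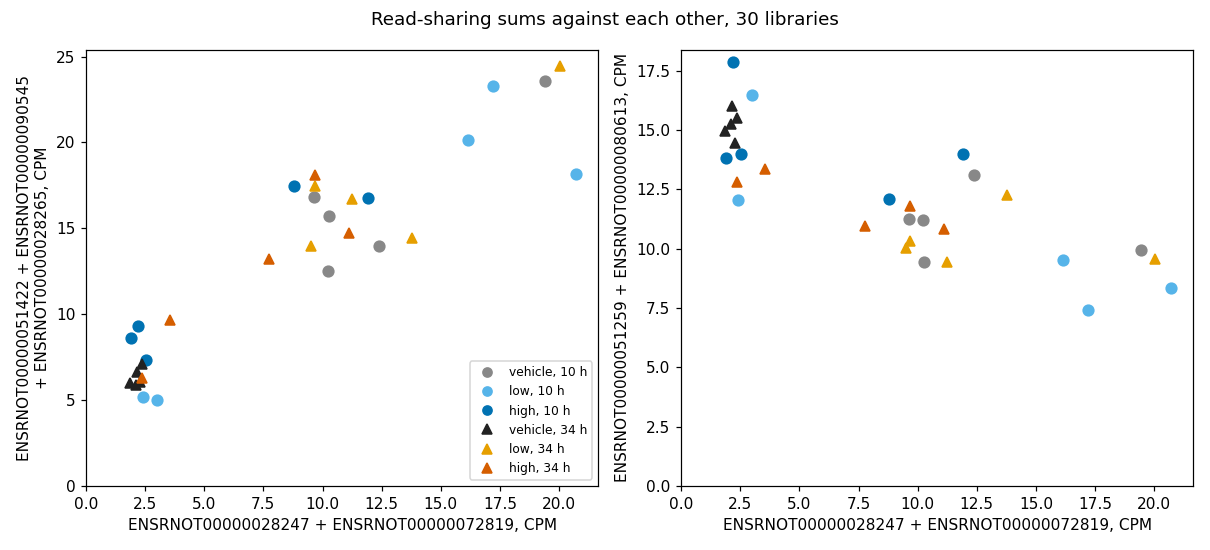
Summed CPM of the second set (left) and of the third pair (right), vertical axes, against the summed CPM of the first pair, horizontal axis, with 1 point per library coloured by dose and shaped by time. The left panel rises from 12 libraries at or under 3.55 CPM of the first pair to 5 libraries at 16.1 CPM or more, and the right panel falls.

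Levels were not spread evenly over the animals. In rank order, the first pair's sum had 12 libraries from 1.86 to 3.55 CPM, then a gap of 2.18-fold, then 13 libraries from 7.75 to 13.8 CPM, then a smaller gap of 1.17-fold, then 5 libraries from 16.1 to 20.7 CPM. On the lower gap, the exact 95% Poisson intervals were 2.94 to 4.24 CPM for the last library below (high dose library 3 at 34 h) and 6.82 to 8.78 CPM for the first above (high dose library 4 at 34 h), and did not overlap. On the upper gap they were 12.4 to 15.3 and 14.9 to 17.5 CPM and did overlap. Both libraries at the lower gap are among those that stood apart. Without those 4 libraries that gap was wider, from 2.98 to 8.79 CPM, or 2.95-fold.

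A member index was formed as the mean log2(CPM + 0.5) of the 4 transcripts minus that of ENSRNOT00000051259. Its r with the partner ENSRNOT00000080613, on deviations from group means, was 0.62, where the division of reads within that pair is itself estimated. It ran from -3.00 to 0.69, with its widest gap (0.93, from -2.04 to -1.11) above the same 12 libraries and the next widest (0.50, from -0.23 to 0.27) below the same 5. Singly, the widest gap of ENSRNOT00000072819, of the first sum and of the second sum lay above exactly those 12 libraries. ENSRNOT00000028247 and ENSRNOT00000051422 each placed 29 of 30 libraries on the same side. For ENSRNOT00000090545 and ENSRNOT00000051259 the widest gap lay elsewhere, above 26 and 2 libraries. Taking the index from the 3 sums, which does not depend on how reads were divided, the widest gap (1.00) was again above those 12, but the next widest (0.46) lay within them, below high dose library 3 at 34 h.

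Fitted as a mixture of 1 to 5 normal components with equal spread, the first sum had its best Bayesian information criterion (BIC) with 3 components (BIC -68.2, against -75.0 with 2 and -98.1 with 1, where higher is better). The components held 12, 13 and 5 libraries. The index was also best described by 3 components of the same sizes, but it contains the first pair and members chosen for varying together, so it is no separate support. Gaps and mixtures used levels with group means kept. The difference between low dose and vehicle at 34 h, which chose the members, therefore enters these steps. The second sum was best described by 2 components (12 and 18 libraries) and the third by 1. Leaving out the 4 libraries that stood apart gave the same numbers of components, of 10, 11 and 5 libraries for the first sum. The lower step is thus seen in the first pair and in the second set. The members of both were chosen for varying together, so the second set is no separate support either. The upper step of the first pair is within counting error at its edge, and the third pair showed no step, with levels that overlap: 12.1 to 17.9 CPM in the 12 libraries, 9.45 to 14.0 CPM in the 13 and 7.43 to 9.96 CPM in the 5. Genotypes of the animals were not analysed here, and a part of them in these levels was not tested.

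**Figure D3:**
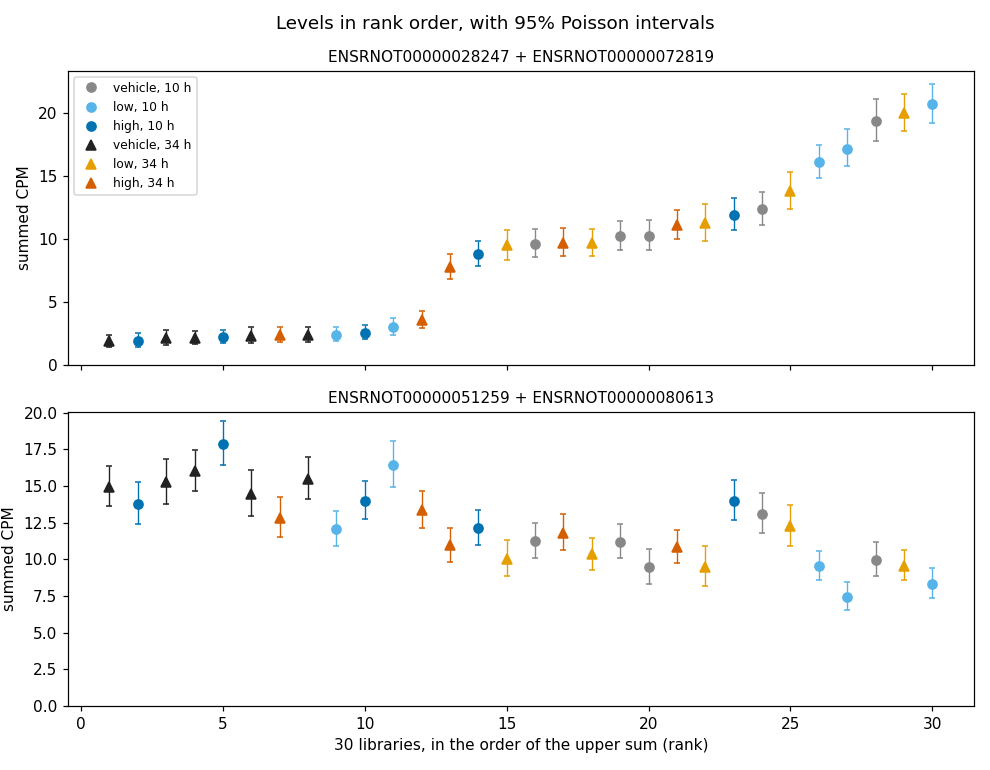
Summed CPM of the first pair (top) and of the third pair (bottom), vertical axes, in 30 libraries ranked along the horizontal axis by the first pair, with 95% Poisson intervals from the counts. The first pair shows 12 libraries up to 3.55 CPM, a step to 7.75 CPM and 5 libraries from 16.1 CPM, while the third pair declines without a step.

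The lowest, middle and highest levels were unevenly distributed over the groups. The choice of members used the low dose and the vehicle of 34 h, so this unevenness and the counts by time are in part fixed by that choice. All 5 vehicle kidneys of 34 h were among the 12 lowest, and 0 of the 5 vehicle kidneys of 10 h, of which 4 were in the middle and 1 among the highest. The low dose had 2 lowest and 3 highest kidneys at 10 h, and 4 middle and 1 highest at 34 h. The high dose had 3 lowest and 2 middle kidneys at 10 h, and 2 lowest and 3 middle at 34 h. Counted by time, 5 of 15 kidneys at 10 h and 7 of 15 at 34 h were among the lowest. The vehicle libraries of 34 h were numbered 43 to 45 and 51 to 52, and the lowest levels occurred in both runs. At 10 h each dose group is a single run of library numbers, so dose and any batch along these numbers cannot be told apart there. The low dose at 34 h was a single run too (46 to 50), so a batch confined to those numbers cannot be told apart from that dose.

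Between the low dose and the vehicle at 34 h, the comparison that chose the members, the 4 transcripts were higher and ENSRNOT00000051259 lower without overlap (background: 1.38% of 21112 transcripts were higher and 1.28% lower without overlap, and nothing is read from this count). The first pair's sum was 2.16 ± 0.19 CPM (SD, n = 5) without mercury and 12.9 ± 4.37 CPM with the low dose. These levels, in the same order, were 6.32 ± 0.53 and 17.4 ± 4.20 CPM for the second set and 15.2 ± 0.58 and 10.3 ± 1.14 CPM for the third pair. The vehicle at 10 h was close to the low dose of 34 h, not to the vehicle of 34 h: 12.4 ± 4.07, 16.5 ± 4.27 and 10.99 ± 1.42 CPM. All 5 transcripts were also without overlap between the vehicle groups of 34 and 10 h, 4 lower and ENSRNOT00000051259 higher (background 0.729% lower and 0.872% higher). That comparison and the next use the same vehicle libraries of 34 h and get no test. Between the high dose and the vehicle at 34 h, ENSRNOT00000051259, lower, was the only member without overlap (background 1.19% in either direction), and the sum of the first pair in the high dose was 6.89 ± 3.81 CPM. High and low dose at 34 h overlapped for all 5 members (background without overlap 0.554%).

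Dose was tested where the choice of members used no group difference, at 10 h, and time in the high dose. The choice by joint variation within groups did use these libraries. It favours a large spread within groups, against which these tests set a difference, so a lack of calls was favoured in advance. edgeR's quasi-likelihood test called 0 of the 5 members in each of these 4 comparisons at a Benjamini-Hochberg adjusted p under 0.05. Over all 21112 transcripts it called 0.0% for low dose against vehicle (1904 with an unadjusted p under 0.05), 0.00474% for high dose against vehicle (2968), 0.0% for high against low dose (3633) and 0.0% for the high dose at 34 against 10 h (1963). A share of 0 members is therefore near the background. DESeq2 called 76, 975, 1107 and 97 transcripts in these comparisons and limma voom 0, 1, 2412 and 2, with the members named below among them. An unadjusted edgeR p under 0.05 was reached by 2 members in high dose against vehicle and by 0 in the other 3 comparisons. Without overlap were 1 member in high dose against vehicle (background 3.72%) and 0 in low dose against vehicle (1.25%), high against low dose (3.72%) and 34 against 10 h (2.06%).

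For the low dose against the vehicle at 10 h, the log2 fold changes were between -0.24 (SE 0.45, ENSRNOT00000090545) and 0.00 for all 5, with edgeR adjusted p of 0.889 to 0.999. The sum of the first pair was 11.9 ± 8.57 CPM (SD, n = 5) in the low dose and 12.4 ± 4.07 CPM in the vehicle. These SDs were not compared by a test, and the members were chosen for varying within groups. The low dose held 3 of the 5 highest libraries of the study and 2 of the 12 lowest.

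For the high dose against the vehicle at 10 h, ENSRNOT00000072819 had 3.10 ± 1.23 CPM (SD, n = 5) against 6.10 ± 1.44 CPM, or -0.98 on the log2 scale (SE 0.27; edgeR adjusted p = 0.209). It was the member without overlap between these groups. ENSRNOT00000051259 had 13.1 ± 2.37 against 9.56 ± 1.49 CPM, or 0.45 on the log2 scale (SE 0.14, edgeR adjusted p = 0.241). ENSRNOT00000028247, at 2.38 ± 3.41 against 6.29 ± 2.78 CPM, differed by -1.40 on the log2 scale (SE 1.32, edgeR adjusted p = 0.683). Its size depended on the fit and on 1 library: it was -4.62 by limma voom (adjusted p = 0.154) and -2.46 without high dose library 5 (edgeR adjusted p = 0.529). ENSRNOT00000051422 and ENSRNOT00000090545 had -0.56 and -0.46 (edgeR adjusted p = 0.524 and 0.460). DESeq2 called ENSRNOT00000072819 (adjusted p = 0.00994) and ENSRNOT00000051259 (adjusted p = 0.0449), where it called 4.62% of all transcripts. Summed over the sets, an addition made after the data were seen, the log2 fold changes were -1.18 (SE 0.53), -0.47 (SE 0.27) and 0.39 (SE 0.12), with edgeR adjusted p of 0.354, 0.457 and 0.241.

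For the high against the low dose at 10 h, the 4 transcripts had log2 fold changes of -1.40 (SE 1.47, ENSRNOT00000028247) to -0.22 (SE 0.45, ENSRNOT00000090545) and ENSRNOT00000051259 0.52 (SE 0.26), with edgeR adjusted p of 0.344 to 0.823. Limma voom with quality weights called ENSRNOT00000051259 (log2 0.73, adjusted p = 0.0488), where it called 11.4% of all transcripts. For the high dose at 34 against 10 h, ENSRNOT00000072819 had 0.51 on the log2 scale (SE 0.33, edgeR adjusted p = 0.630) and ENSRNOT00000051259 -0.27 (SE 0.14, edgeR adjusted p = 0.569). The other 3 lay between -0.08 and 0.27, with edgeR adjusted p of 0.841 to 0.988. With SEs up to 1.47, these comparisons leave room for sizeable differences in either direction, and the missed threshold does not show that the groups were alike.

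Genomic intervals with coordinates (build Rnor_6.0 per the submitters' processing notes) were compared with the index in the same way. Of 94 intervals on chromosome 1 between 86 and 90 Mb, 48 had a mean of at least 0.5 CPM. The interval chr1:88285761-88305760 had the largest r with the index in size among all 9148 intervals of that level in the genome, at r = -0.78 (rho -0.77, over 30 libraries, on deviations from group means). In the 10 h libraries alone it ranked 4 of 9148, and in the 34 h libraries alone 25. It was the only interval of the 9148 past 0.7 in size, so the share over all intervals, 0.0109%, is this interval itself. The next closest were chr1:88559952-88579951 (r = 0.67), which went with the 4 transcripts, and chr1:87580454-87600453 (r = -0.65). The 3 intervals with the largest r in the genome thus all lay within 86 to 90 Mb of chromosome 1, where 3 of 48 passed 0.6 in size, or 6.25%, against 0.12% of all intervals (and 0.148% of other transcripts). These intervals were named with the pattern known, and no p is given.

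At chr1:88285761-88305760, the vehicle libraries had 2.32, 3.49, 1.54, 3.19 and 2.36 CPM at 10 h and 3.58, 4.44, 4.13, 2.82 and 4.40 CPM at 34 h. The low dose libraries had 1.68, 1.94, 4.55, 4.19 and 1.79 CPM at 10 h and 3.05, 2.19, 2.59, 3.08 and 1.60 CPM at 34 h. The 2 high values of the low dose at 10 h were those of libraries 3 and 4, in which the first pair was low. The high dose libraries had 4.06, 4.59, 2.85, 2.94 and 2.69 CPM at 10 h and 2.29, 4.13, 5.10, 1.94 and 2.72 CPM at 34 h. It ranged from 2.82 to 5.10 CPM in the 12 libraries with the lowest index, from 1.94 to 3.49 CPM in the 13 in the middle and from 1.54 to 1.94 CPM in the 5 with the highest. Its mean count was 91.7 per library. The r was -0.84 at 10 h, -0.73 at 34 h, -0.72 without the 2 libraries farthest from the median index and -0.82 without the 4 libraries that stood apart.

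The second interval, chr1:88559952-88579951, lies 274 kb from the first between centres. It had 1.24 to 2.66 CPM in the 12 libraries with the lowest index, 2.02 to 4.02 CPM in the 13 and 2.41 to 4.40 CPM in the 5. Its r was 0.75 at 10 h and 0.29 at 34 h, so that it rests mostly on the 10 h libraries. The third, chr1:87580454-87600453, was at a mean of 0.824 CPM, or 24.2 counts per library, with r of -0.71 at 10 h and -0.60 at 34 h. Most intervals around them did not follow: the median size of r was 0.15 over the 48 and 0.12 over all intervals. Of the intervals between the first and the second, chr1:88519083-88539082 had r = -0.52. The annotation of these intervals and their sequence were not used here.

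**Figure D4:**
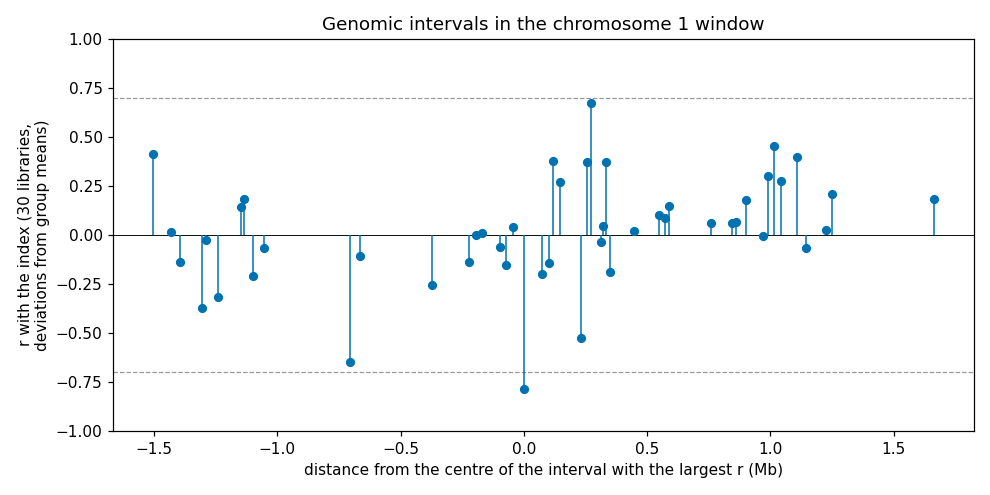
Pearson's r with the member index (vertical axis, deviations from group means, 30 libraries) for the 48 genomic intervals of the chromosome 1 window, by distance in Mb from the centre of the interval with the largest r (horizontal axis). Dashed lines mark 0.7 in size, passed by 1 interval (r = -0.78) at distance 0.

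**Figure D5:**
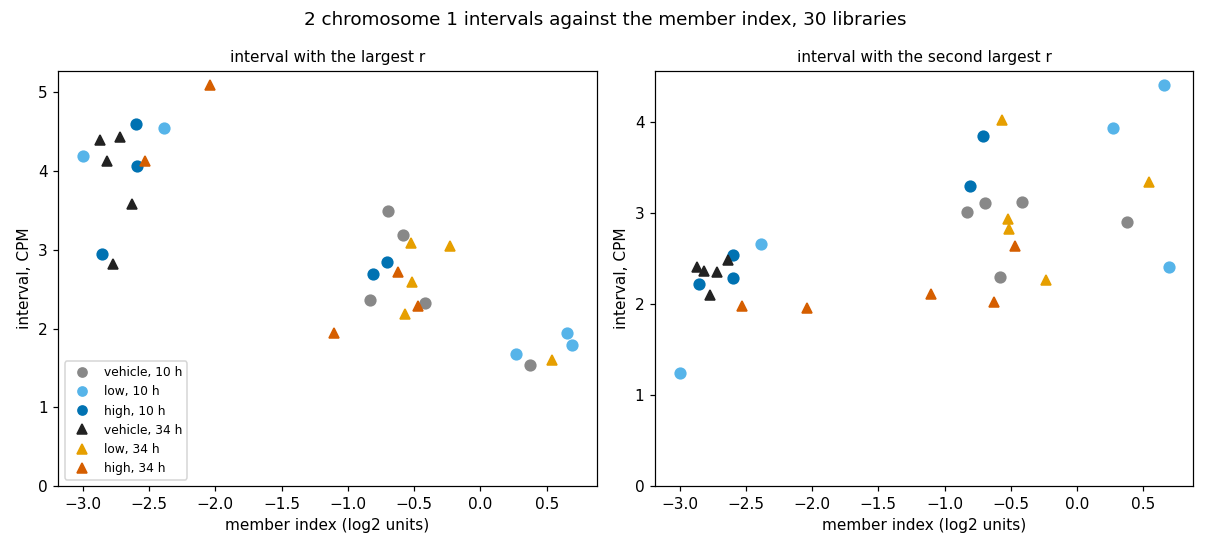
CPM of chr1:88285761-88305760 (left) and chr1:88559952-88579951 (right), vertical axes, against the member index in log2 units, horizontal axis, with 1 point per library coloured by dose and shaped by time. The left interval falls from 2.82 to 5.10 CPM at the lowest index to 1.54 to 1.94 CPM at the highest, and the right one rises with more overlap.

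Other intervals among the 6 closest in the genome were chr13:71185717-71191641 (r = 0.64), chr16:75856246-75873380 (r = -0.64) and chr1:91064429-91070992 (r = -0.62). In the 10 h libraries alone their r was 0.79, -0.82 and -0.82, so that all 3 passed 0.7 in size there. These values were larger in size than the 10 h r of chr1:88559952-88579951 (0.75) and chr1:87580454-87600453 (-0.71). In the 34 h libraries the r of these 3 was -0.05, -0.04 and -0.23, so that 0 of them passed 0.7 in size there. Among 18921 other transcripts of at least 0.5 CPM, 3 passed 0.7 in size (0.0159%), and 2 of these had identical values in every library. The most negative were ENSRNOT00000076245 (r = -0.73, with -0.80 at 10 h and -0.51 at 34 h) and ENSRNOT00000074211 (r = -0.71, with -0.94 at 10 h and -0.22 at 34 h). The most positive were ENSRNOT00000089686 (r = 0.68, with 0.89 at 10 h and -0.24 at 34 h) and ENSRNOT00000082252 (r = 0.67, with 0.86 and 0.35).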

How the data were processed

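RNA sequencing of 30 kidneys, 1 deposited table per library, was used. Kallisto 0.42.2 and the build Rnor_6.0 are named, per the submitters' processing notes, for the deposited estimated counts. TPM values, per the file headers, stand beside them, with lengths and effective lengths as deposited. The sources used here give neither the annotation release nor the options. Per the labels' protocols, libraries were poly-A selected and stranded.

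Estimated counts were rounded for tests. Transcripts passing filterByExpr over all libraries (21112) were tested with edgeR 4.0.16 (quasi-likelihood, robust, TMM) on the groups compared, adjusted by Benjamini-Hochberg. All 5 members passed the filter. The SE is the log2 fold change divided by the square root of F. Alternatives used DESeq2 1.42.0 and limma 3.58.1, and the mixtures mclust 6.1.1, in R 4.3.3. The edgeR steps were run on simulated counts as a check of the code. Those counts were drawn around a common mean per transcript, without the steps described here, so nothing about these members is read from that check. Intervals and index used log2(CPM + 0.5). Replicate numbers follow accession order and pair nothing. That libraries come from separate animals follows from the design text.

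The members, lists and tests were chosen with earlier results of these data known. Named besides the members were the 2 other transcripts with the highest and the 2 with the lowest r, the 6 intervals with the largest r in size, and any window interval past 0.7. The interval chr1:88519083-88539082 was named after its value was seen. Read-sharing sums, mixtures and the counts at 0.6 were added after the data were seen. Without gene names, the planned marker list was not run.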

Additional observations from a re-analysis of the deposited data

Results flagged for a closer look

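Of 48 sets of 5 libraries (5 members and 3 read-sharing sums in 6 groups), 4 had a library whose distance from the next was large against the range of its group. Chance alone gives this in about 5% of such sets, and the sets are not independent, since the members vary together. In the vehicle at 10 h, library 3 stood at 8.643 CPM of ENSRNOT00000072819 where the others had 5.148 to 5.826 CPM, at 12.64 CPM of ENSRNOT00000090545 where the others had 6.249 to 7.945 CPM, and at 19.42 CPM of the first pair's sum where the others had 9.623 to 12.39 CPM. In the low dose at 34 h, library 5 stood at 12.34 CPM of ENSRNOT00000090545 where the others had 6.554 to 8.065 CPM. Both libraries are among the 5 with the highest member index.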

How the results depend on the processing

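No paired analysis was possible because the labels give no replicate numbers that groups share. The number of members called moved from 0 to 2 with DESeq2 for high dose against vehicle at 10 h and from 0 to 1 with limma voom for high against low dose at 10 h. It was 0 with every single library left out, and in the other comparisons and settings, where DESeq2 gave 2 of the 5 no adjusted p for the high dose at 34 against 10 h. Over all transcripts, calls for low dose against vehicle, high dose against vehicle, high against low dose, and 34 against 10 h in the high dose were 0, 1, 0 and 0 by edgeR (DESeq2 and limma voom above), 0, 0, 4 and 0 by limma on log2(TPM + 1), and 0, 62, 674 and 106 with all 30 libraries in 1 fit. Leaving out single libraries gave 0 to 3, 0 to 1, 0 to 202 and 0 to 6, and leaving out the 4 libraries that stood apart 0, 0, 184 and 2. A fit with genomic intervals gave 1, and a fit with no filter 1, for 34 against 10 h. With no filter, DESeq2 size factors or without the 4 libraries, high dose against vehicle gave 0, and at least 5 CPM in 5 libraries gave 2 for high against low dose.

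Of 400 log2 fold changes of single members under alternatives, 24 turned sign, all in 2 comparisons. For low dose against vehicle, ENSRNOT00000028247 had 0.0016 with no filter and 0.013 with at least 5 CPM in 5 libraries. With single libraries left out it ranged from -0.29 to 0.31, ENSRNOT00000072819 from -0.49 to 0.12, ENSRNOT00000051422 from -0.45 to 0.050 and ENSRNOT00000051259 from -0.34 to 0.055. For 34 against 10 h in the high dose, the ranges were -0.50 to 1.15 for ENSRNOT00000028247 and -0.22 to 0.082 for ENSRNOT00000090545, whose set summed gave 0.069. ENSRNOT00000028247, with libraries at 0, varied most between tools: by limma voom it had -0.68 for low dose against vehicle (edgeR 0.00), -4.62 for high dose against vehicle (edgeR -1.40), -3.80 for high against low dose (edgeR -1.40) and 2.83 for 34 against 10 h (edgeR 0.08). Without high dose library 5 of 10 h the last 3 were -2.46, -2.46 and 1.15. The cause was not tested.

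All 10 member pairs passed 0.7 in size, and 4 did in the 34 h libraries alone. Libraries below the widest gap were 12 of 30, 5 of 15 at 10 h and 7 of 15 at 34 h, which follows from fewer libraries. With each replicate number left out these were 7 to 10 pairs and 9 to 11 libraries. Window intervals past 0.7 numbered 1, 1 to 2 with a replicate number left out, 0 past 0.8, and 5 (10.4%) in the 10 h libraries alone, where 1.01% of all intervals passed. In the 34 h libraries alone the number was 1 (2.08%), where 0.47% of all intervals passed.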
